A study of Mus musculus with 18 samples.

Results

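The collagen chain genes are the genes that encode the alpha chains of the collagens, the main structural proteins of connective tissue and basement membranes. They were taken as every gene whose symbol is Col, a number, a and a number. Symbols came from the accession on each probe through a RefSeq table, since the scanner files used here pair probes with accessions. Of 44 such genes in that table, 42 had a probe, and 41 were well above background in the sample channel on all 3 arrays of at least 1 group. These 41 of 26067 measured genes are described here. They were grouped as 11 fibrillar chains, 6 type IV chains of basement membranes, 8 FACIT chains (fibril-associated collagens with interrupted triple helices) and 16 others. Col28a1 was well above background on 0 arrays and was left out, and Col12a1 and Col6a3 were not analysed here.

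The samples were intestine of male C57BL/6 mice given either saline or azoxymethane (AOM), a chemical that causes tumours of the bowel in rodents. Their feed was a control diet or one containing the medicinal herb St. John's wort (SJW). There were 6 groups of 3 arrays: saline with control diet, saline with SJW, non-tumour tissue after AOM with control diet, non-tumour tissue after AOM with SJW, and tumours after AOM with control diet or with SJW. Each array set 1 sample, in Cy5, against the same commercial pool of RNA from Swiss Webster mouse organs and embryos, in Cy3, which held no intestine. Values are log2 ratios of Cy5 over Cy3, so values above 0 stand for a higher normalized signal from the tissue than from the pool. There were no dye swaps, so a dye effect on a probe cannot be told apart from a difference to the pool. Changes are differences of log2 ratios ± SE with n = 3 arrays a group. Per the design text of the series, the 3 arrays of a group are biological replicates. The labels used here give no age, dose or time, and do not say whether tumour and non-tumour samples came from the same animals.

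The labels name small intestine as the tissue, but the extraction protocol names liver. In control diet saline samples the liver gene Alb was at -2.77 ± 0.81 (SD, n = 3), and the enterocyte genes Lct and Fabp1 were at 0.11 ± 0.22 and -1.16 ± 0.53. Alb, Lct and Fabp1 were each well above background on 2 of these 3 arrays. Genes known for high levels in the colon stood far above the pool in the same samples: Car1 at 7.76 ± 0.40, Slc26a3 at 7.08 ± 0.53 and Hoxd13 at 4.0 ± 0.44. The mean log2 ratio on these arrays was 4.52 to 4.75 over 8 colon genes. It was 0.18 to 0.79 over 9 small intestine genes and -0.98 to -0.30 over 5 liver genes. The tissue is therefore called intestine here. Over the spots of an array, the median Cy5 intensity ranged from 133 to 375 for non-tumour tissue and from 336.5 to 786.5 for tumours. Each of 3 slides carried 1 replicate of every non-tumour group. Tumours were on 2 further slides that were scanned on a different day, so in every comparison of tumours with other tissue the slide and scan day cannot be told apart from the tumour.

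Collagen molecules are trimers of alpha chains. Fibrillar collagens form the tensile fibres of the stroma and are made mostly by fibroblasts. Type IV collagens form the sheet-like network of basement membranes under epithelium and around vessels and smooth muscle. FACITs sit on the surface of fibrils, and type VI collagens form beaded filaments near cells. In the intestine the stroma around the crypts, the submucosa and the muscle coat all hold collagen, and deposition of collagen in the stroma is a known feature of intestinal tumours.

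RefSeq promoter windows (build GRCm38.p6) were found for 33 of the 41 members. The 250 bases before the start are shown for 3 fibrillar chain genes that were higher in tumours, because they let a reader see how different the starts of such genes are. They lie at chr6:4505368-4505617 (+ strand) for Col1a2, chr1:45311288-45311537 (+) for Col3a1 and chr2:27886175-27886424 (+) for Col5a1. Capitals mark the CCAAT box by its letters CCAAT, the TATA box as TATAAA and the GC box as GGGCGG, searched on both strands, and no marked motif overlaps another.
Col1a2: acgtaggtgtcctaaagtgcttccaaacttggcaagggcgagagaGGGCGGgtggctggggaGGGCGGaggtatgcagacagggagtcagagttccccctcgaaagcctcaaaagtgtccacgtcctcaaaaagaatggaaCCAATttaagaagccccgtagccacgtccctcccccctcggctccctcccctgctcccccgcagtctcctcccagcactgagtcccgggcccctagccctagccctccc
Col3a1: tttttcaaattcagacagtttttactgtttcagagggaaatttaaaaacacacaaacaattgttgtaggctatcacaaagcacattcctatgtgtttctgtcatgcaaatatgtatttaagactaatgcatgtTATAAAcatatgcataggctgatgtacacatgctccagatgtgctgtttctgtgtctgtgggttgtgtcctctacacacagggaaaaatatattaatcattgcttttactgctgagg
Col5a1: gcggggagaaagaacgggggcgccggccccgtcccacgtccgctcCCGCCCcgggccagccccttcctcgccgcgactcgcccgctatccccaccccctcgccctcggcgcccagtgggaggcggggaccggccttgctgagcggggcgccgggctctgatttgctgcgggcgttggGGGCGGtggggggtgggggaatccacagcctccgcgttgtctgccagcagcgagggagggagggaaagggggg
The type IV genes Col4a1 and Col4a2 lie on opposite strands of chromosome 8, and their RefSeq starts are 21 bases apart.

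The 3 fibrillar windows share no full set of motifs. Col1a2 held CCAAT 109 bases before its start and GGGCGG at 188 and 205 bases. Col3a1 held TATAAA at 117 bases, and Col5a1 held GGGCGG at 73 and 205 bases. Over the 36 windows of the members, GGGCGG was in 22 (61.1%; 32.7% of all 32851 windows), CCAAT in 13 (36.1%; 33.8%), TATAAA in 5 (13.9%; 12.4%) and the AP-1 motif TGANTCA in 1 (2.78%; 6.75%). A match is a description of letters and not a binding site.

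Most collagen chains that differed between groups were higher in tumours. Against saline tissue, 19 of 41 were higher and 3 lower in control diet tumours, where 13.2% of all genes were higher and 19.6% lower. In SJW tumours 21 were higher and 2 lower, where 13.7% and 22.5% of all genes were. In either direction 32.9% and 36.2% of all genes passed. The 19 made up all of the higher chains on the control diet and 90.5% of those on SJW. A gene was called where limma's test over all genes gave a Benjamini-Hochberg adjusted p under 0.05. The median change over the 41 was 0.46 on the control diet and 0.50 on SJW, against -0.04 and -0.07 over all genes. These medians were about doubled by other scalings, at 1.07 and 0.92 with arrays centred on their medians, 1.03 and 1.07 with the scanner's log ratio and 0.93 and 0.91 with the authors' deposited table. Without background correction the control diet median was 0.69, and on SJW it was 1.08 with Cy5 alone and 0.76 without tumour replicate 1. On the control diet the split of 19 higher and 3 lower was 26 and 1 with centred arrays, 22 and 1 with the scanner's ratio and 19 and 0 with the deposited table. The split of all genes moved too, from 3449 higher and 5115 lower to 6598 and 2989 with centred arrays. It was 3811 and 4018 with the scanner's ratio, and 3158 and 3398 of 22958 genes with the deposited table. The 4 members Col6a5, Col9a1, Col17a1 and Col19a1 were well above background on all 3 arrays of a group in tumours alone, so they entered the set through the tumours. Of these, Col6a5 alone is among the 19 and the 21 higher chains, so its place in those counts is not independent of the filter. The groups did not overlap for 23 members above and 3 below in each diet (19% above and 24.3% below of all genes on the control diet, 20.1% and 30.3% on SJW). In bulk tissue, fewer cells of a type and less RNA per cell cannot be told apart.

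**Figure D1:**
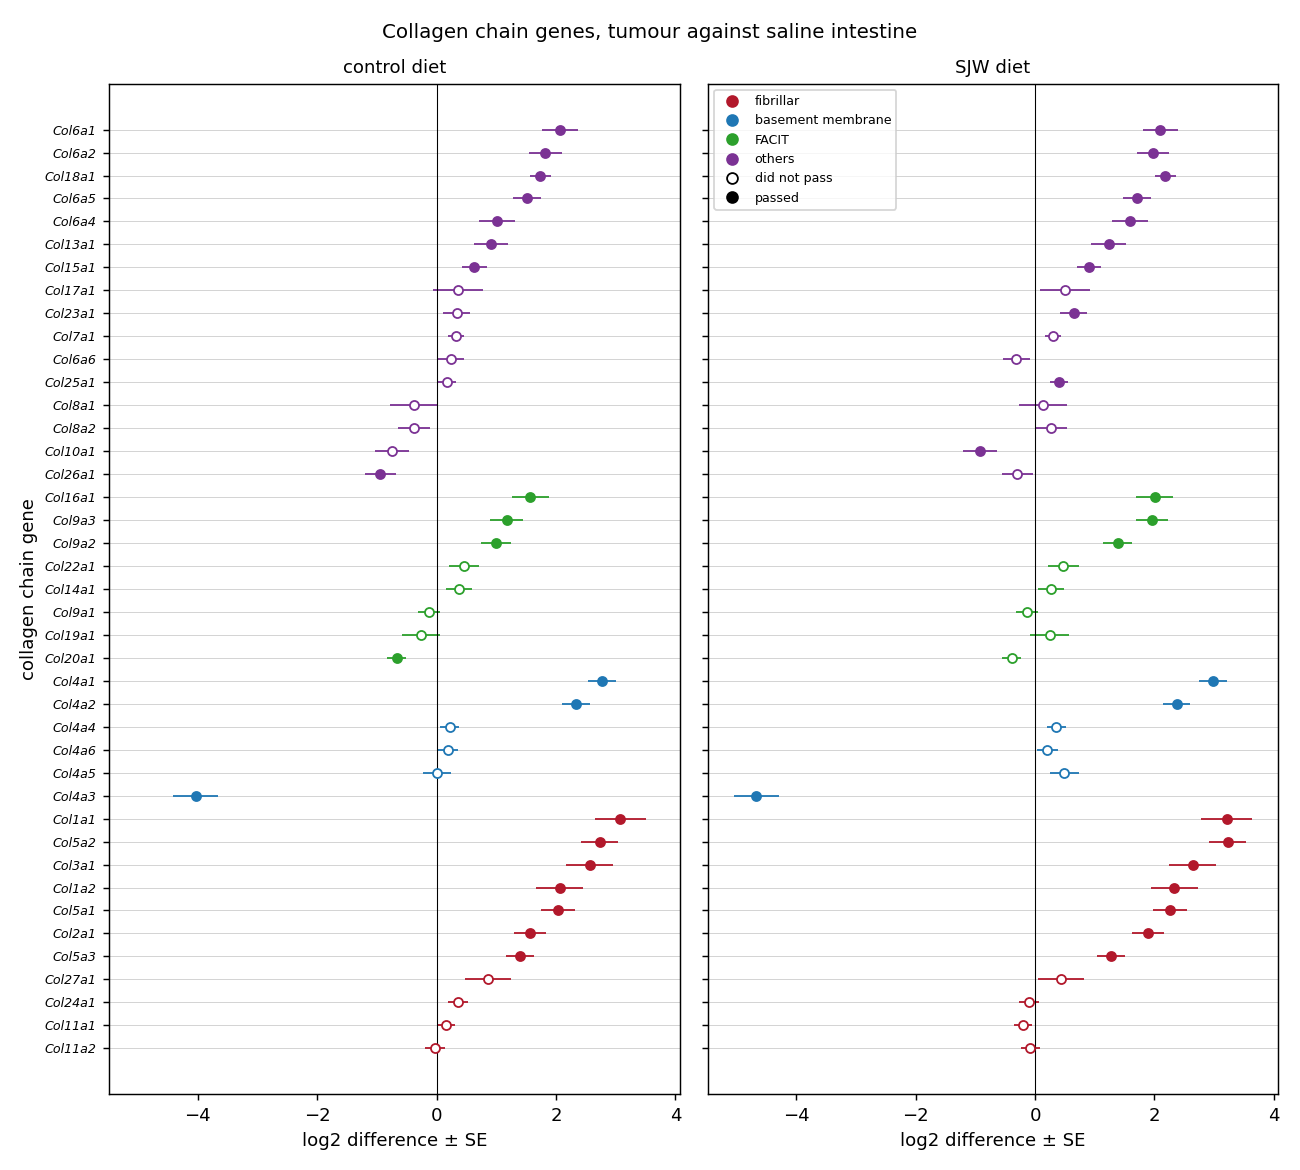
Log2 difference between tumours and saline tissue (x axis, ± SE) for each of the 41 collagen chain genes (y axis), by diet, coloured by class. Filled points passed the test; Col4a3 stands alone at -4.03 and -4.67, while Col1a1, Col5a2 and Col4a1 lie at 2.73 to 3.23.

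Fibrillar chains had the largest median change of the 4 classes: 1.57 in control diet tumours and 1.89 in SJW tumours, by the brightest probe of each gene. In each diet this median is the value of Col2a1, whose second probe gave a smaller change, as given below. With the mean of a gene's probes the SJW value was 1.08. The lowest control diet value over all settings was 1.17, without the arrays with a bright Cy3 channel. The same 7 of 11 passed in each diet: Col1a1, Col1a2, Col2a1, Col3a1, Col5a1, Col5a2 and Col5a3. Col11a1, Col11a2, Col24a1 and Col27a1 did not pass, with changes of -0.20 to 0.85.

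Col1a1 encodes the major chain of type I collagen. Its log2 ratios were -3.79, -3.86 and -3.26 in control diet saline tissue and -0.73, -0.77 and -0.19 in control diet tumours. On SJW they were -3.67, -2.92 and -3.50 after saline and 0.03, 0.05 and -0.55 in tumours. All 6 tumours lay above all 6 saline samples, and the changes were 3.07 ± 0.43 (8.42-fold, limma adjusted p = 6.27e-05) and 3.21 ± 0.43 (9.24-fold, 3.41e-05). Its partner chain Col1a2 was at -1.13, -3.12 and -2.31 after saline on the control diet and at 0.20, -0.33 and -0.25 in tumours. Saline replicate 1 stood above the other 2 but below the tumours. The change of Col1a2 was 2.06 ± 0.39, and 2.33 ± 0.39 on SJW.

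Col3a1, the chain of type III collagen of reticular fibres, was at -2.60, -3.35 and -2.45 after saline and -0.48, -0.35 and 0.12 in tumours on the control diet. On SJW it was at -2.84, -1.56 and -2.47 and at 0.39, 0.72 and -0.06. The groups did not overlap, and Col3a1 rose by 2.56 ± 0.39 and 2.64 ± 0.39. Col5a2, a chain of the type V collagen that sits within type I fibrils, went from -1.14, -0.46 and -1.02 to 1.74, 1.64 and 2.19 on the control diet. On SJW it went from -1.51, -0.89 and -1.37 to 2.05, 2.23 and 1.63. Its change was 2.73 ± 0.31 (6.64-fold) and 3.23 ± 0.31 (9.37-fold). Every tumour was above the pool for Col5a2 and every saline sample below it. The partner chain Col5a1 was at -2.09, -1.62 and -1.93 after saline and 0.03, 0.14 and 0.29 in tumours on the control diet, without overlap, and rose by 2.03 ± 0.28, and by 2.26 ± 0.28 on SJW. Col5a3, the third type V chain, rose by 1.40 ± 0.24 and 1.27 ± 0.24.

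Col2a1, the main collagen of cartilage, also passed, at 1.57 ± 0.26 and 1.89 ± 0.26. Its second probe gave 0.36 ± 0.16 and 0.27 ± 0.16. Of 6 cartilage markers 0 rose and 1 fell in control diet tumours (13.2% and 19.6% of all genes), with a median change of 0.11. On SJW 2 rose and 1 fell (13.7% and 22.5% of all genes), with a median of 0.05. The summed level of that list, as its mean log2 ratio, was -0.24 to 0.04 on all 18 arrays. Its part in the Col2a1 value was not tested.

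**Figure D2:**
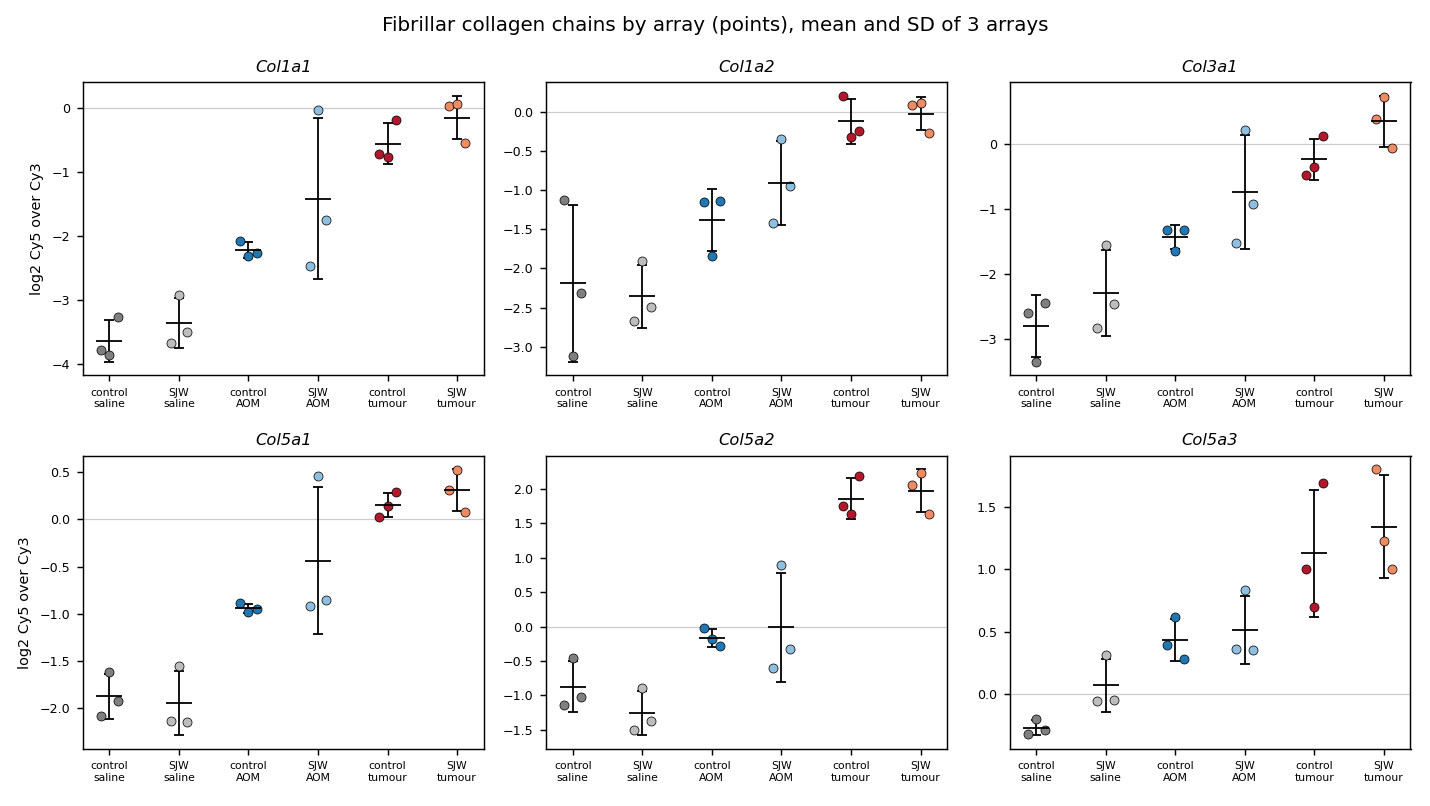
Log2 Cy5 over Cy3 (y axis) of 6 fibrillar chain genes in each group (x axis): points are arrays, the horizontal mark is the mean and the bars are the SD of 3 arrays. For Col1a1 the saline arrays lie at -3.86 to -2.92 and the tumours at -0.77 to 0.05; replicate 2 of the SJW AOM tissue, at -0.04, is level with the tumours.

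The 6 type IV chains split. Col4a1 and Col4a2, which together form the basement membrane trimer found in nearly all tissues, rose in tumours, Col4a3 fell, and Col4a4, Col4a5 and Col4a6 did not pass in either diet. Col4a1 was at -1.83, -2.25 and -1.78 after saline and at 0.75, 0.78 and 0.90 in tumours on the control diet. On SJW it was at -2.10, -1.56 and -1.99 after saline and at 1.22, 1.22 and 0.86 in tumours. The spread within each group was small against the distance between them: Col4a1 rose by 2.77 ± 0.23 (6.81-fold, limma adjusted p = 5.98e-07) and 2.98 ± 0.23 (7.87-fold). Col4a2, whose RefSeq start is 21 bases from that of Col4a1, rose by 2.33 ± 0.23 and 2.37 ± 0.23.

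Col4a3 encodes a chain known from the basement membranes of kidney and lung, where it pairs with Col4a4 and Col4a5. Its ratios were 2.90, 3.12 and 3.73 after saline on the control diet, and 2.92, 3.33 and 3.92 on SJW. In tumours they were -0.84, -0.39 and -1.12 on the control diet and -1.85, -0.74 and -1.24 on SJW. Every saline sample lay above the pool and every tumour below it. Col4a3 fell by 4.03 ± 0.38 (16.4-fold, limma adjusted p = 1.49e-06) and by 4.67 ± 0.38 (25.4-fold, 3.63e-07). These values rest on 1 of its 2 probes. The other was not well above background on all 3 arrays of any group and was left out. Its neighbour and partner Col4a4 was at 0.22 ± 0.16 and 0.35 ± 0.16, and Col4a5 was at 0.01 ± 0.24 and 0.49 ± 0.24, none of which passed. Col4a6 was at 0.18 ± 0.18 and 0.20 ± 0.18. The Col4a3 and Col4a1 tumour calls held in all 17 alternative settings that could be run for each gene.

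**Figure D3:**
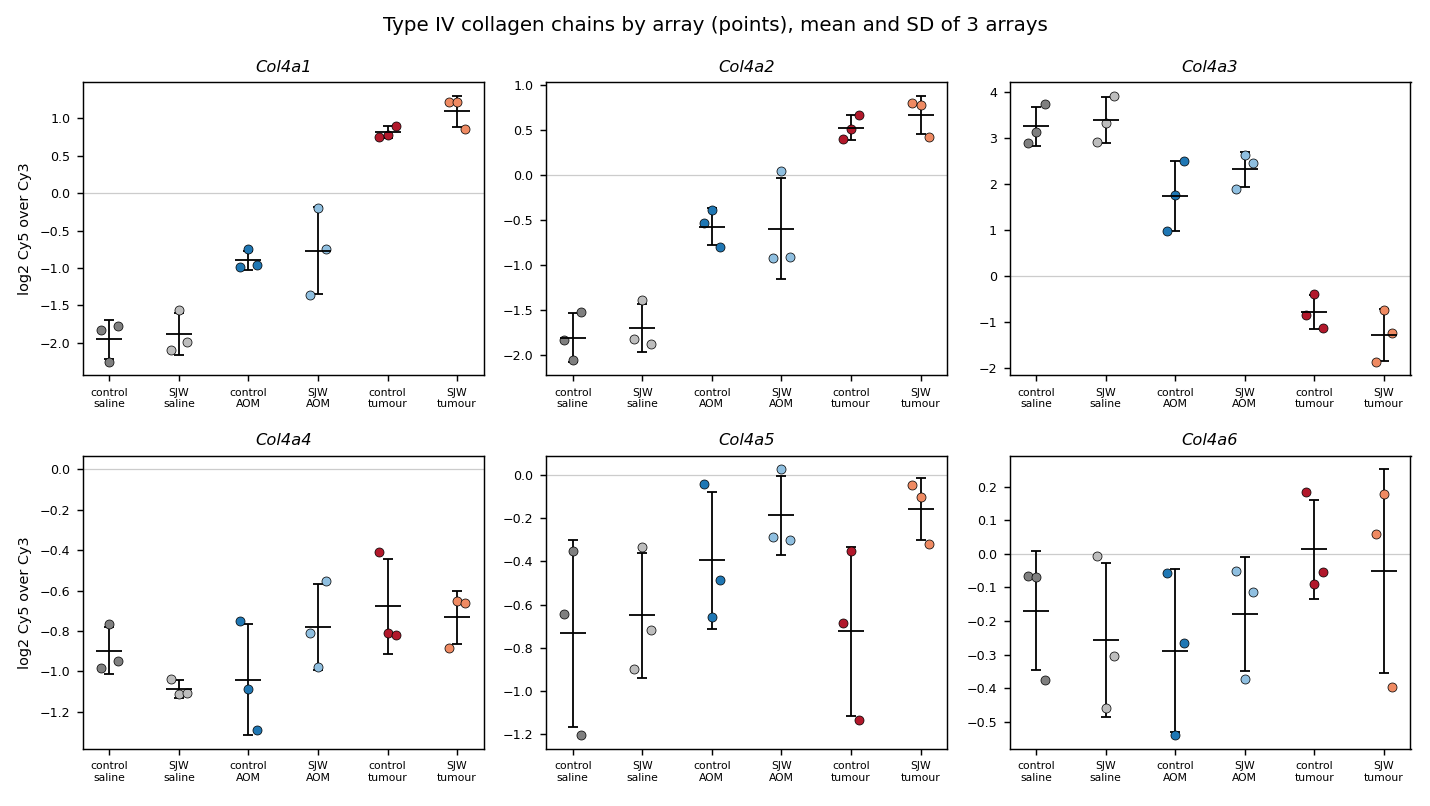
Log2 Cy5 over Cy3 (y axis) of the 6 type IV collagen chain genes in each group (x axis), with arrays as points and mean and SD of 3 arrays. Col4a3 steps down from saline tissue (2.90 to 3.92) through AOM tissue (0.98 to 2.63) to tumours (-1.85 to -0.39), and Col4a1 and Col4a2 step up.

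Of the 8 FACIT chains, 3 rose in each diet: Col16a1, Col9a2 and Col9a3. Col16a1, found in fibrils of many tissues, went from -2.0, -2.08 and -1.79 after saline to -0.26, 0.34 and -1.23 in control diet tumours. Tumour replicate 3 was the lowest of these but still above the saline samples. The change was 1.57 ± 0.31, and 2.0 ± 0.31 on SJW. A second Col16a1 probe gave 0.44 ± 0.18 and -0.30 ± 0.18, so the probes disagreed in direction on SJW. Col9a3, a type IX chain known from cartilage, went from -1.50, -0.46 and -1.30 to 0.34, -0.22 and 0.15 on the control diet (1.17 ± 0.27), and rose by 1.96 ± 0.27 on SJW. Col9a2 rose by 0.99 ± 0.25 and 1.38 ± 0.25, while Col9a1, well above background on 8 of 18 arrays, was at -0.12 ± 0.19 and -0.14 ± 0.19. Col14a1, a FACIT of dense connective tissue, did not pass, at 0.38 ± 0.22 and 0.27 ± 0.22. Col20a1 fell by 0.67 ± 0.16 on the control diet. That call ended in 4 of 18 other settings. These were the deposited table, centred arrays, the scanner's log ratio, and leaving out the arrays with a bright Cy3 channel.

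Among the other chains, 7 of 16 rose and 1 fell in control diet tumours, and 9 rose and 1 fell in SJW tumours. The type VI chains Col6a1 and Col6a2, core subunits of beaded filaments, rose by 2.06 ± 0.30 and 1.82 ± 0.27 on the control diet and by 2.10 ± 0.30 and 1.97 ± 0.27 on SJW. Col6a1 went from -3.05, -3.17 and -3.04 to -1.39, -1.02 and -0.66 on the control diet. The Col6a1 ratios of these tumours were still below 0 but stood apart from those of the saline samples. Col6a2 was at -2.93, -3.00 and -3.27 and at -1.54, -1.13 and -1.05 in the same groups, also without overlap. The further type VI chain Col6a4 rose by 1.01 ± 0.30 and 1.59 ± 0.30, and Col6a6 did not pass. Col6a5 was at 1.51 ± 0.23 and 1.71 ± 0.23 and passed, but it was well above background on 2 of 3 arrays in each non-tumour group and was kept through the tumours, where it is high. A second Col6a4 probe gave 0.23 ± 0.16 and 0.17 ± 0.16.

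Col18a1 encodes a basement membrane collagen whose end fragment is endostatin. It was at -0.33, -0.73 and -0.70 after saline and 0.94, 1.23 and 1.30 in tumours on the control diet, and at -0.64, -0.68 and -0.96 and 1.51, 1.71 and 1.06 on SJW. All tumours lay above all saline samples, with changes of 1.74 ± 0.17 and 2.18 ± 0.17. Col15a1, its relative of vessel and muscle basement membranes, was at 0.19, -0.43 and -0.35 after saline and at 0.56, 0.35 and 0.40 in tumours on the control diet, a narrow gap. Col15a1 rose by 0.63 ± 0.20 and 0.91 ± 0.20, and the control diet call ended in 6 of 18 other settings, among them without saline replicate 2 or 3 or tumour replicate 1 or 3 (0.52 to 0.65). The transmembrane chain Col13a1 rose by 0.91 ± 0.29 and 1.23 ± 0.29, and on SJW Col23a1 and Col25a1 rose by 0.65 ± 0.22 and 0.41 ± 0.15. The calls of Col13a1 on the control diet, Col23a1 and Col25a1 ended in 7, 6 and 13 of 18 other settings. Col17a1, the hemidesmosome chain of epithelium, was well above background on 8 of 18 arrays and did not pass. Col7a1, the anchoring fibril chain, was at 0.32 ± 0.13 and 0.30 ± 0.13 and did not pass. Col26a1 fell by 0.94 ± 0.26 on the control diet, where 2 of 3 saline arrays had it well above background. That call ended in 8 of 18 other settings, with values of -1.17 to -0.01 over all of them, among them -0.70 without saline replicate 2 and -0.68 without tumour replicate 3. The short-chain gene Col10a1 fell by 0.93 ± 0.29 on SJW, and its call ended in 8 of 18, among them -0.75 and -0.83 without saline replicate 1 or 2 and -0.90 without tumour replicate 1, and its sign turned with Cy5 alone (0.05).

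**Figure D4:**
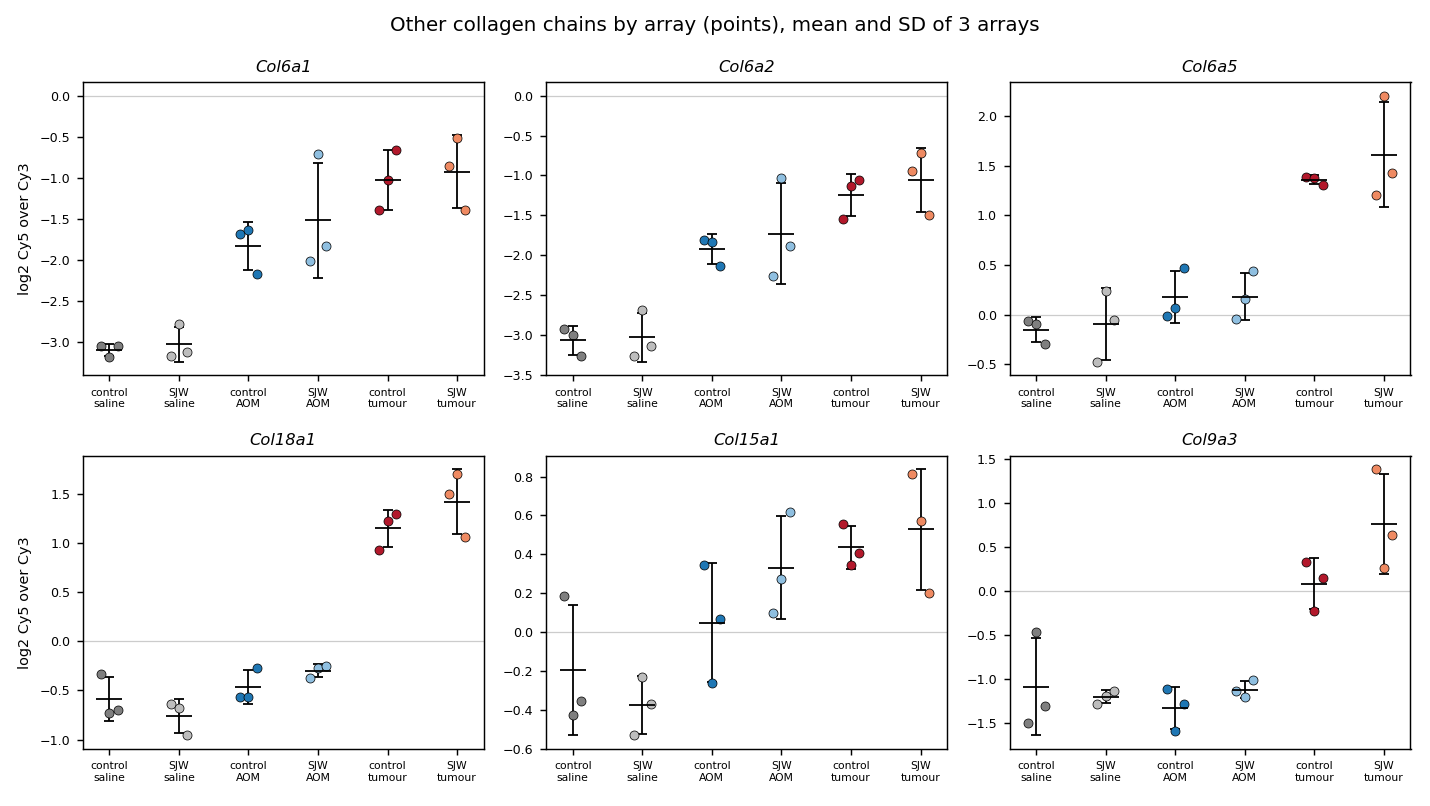
Log2 Cy5 over Cy3 (y axis) of 6 further collagen chain genes in each group (x axis), with arrays as points and mean and SD of 3 arrays. Col18a1 passed in tumours against saline and against AOM tissue in both diets. Col6a1 and Col6a2 passed in tumours against saline in both diets and after AOM on SJW. Against AOM tissue Col6a1 passed on the control diet alone and Col6a2 in neither diet. Col6a5 was kept through the tumour arrays.

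Against non-tumour tissue after AOM, diet by diet, fewer chains passed than against saline. On the control diet 18 of 41 were higher and 2 lower (12.7% and 19.2% of all genes), and on SJW 12 were higher and 1 lower (9.18% and 15.4%). The median change was 0.49 and 0.26, but 0.87 and 0.63 with centred arrays and 0.86 and 0.80 with the scanner's log ratio. On SJW it was 0.61 with the deposited table and 0.68 with Cy5 alone. Counted in either direction, 32% and 24.6% of all genes passed. The groups did not overlap for 19 members above and 3 below on the control diet (18% and 24.6% of all genes), and for 14 and 4 on SJW (17.7% and 28.5%). Of the higher chains 11 were shared, 61.1% of those on the control diet and 91.7% of those on SJW. Col6a5, which entered the set through the tumours, is among the 18, the 12 and the shared 11. Its place in these counts is not independent of the filter. Without the 6 arrays with a bright Cy3 channel, 11 chains passed on the control diet in place of 20. With the Cy5 channel alone the SJW split was 14 higher and 4 lower in place of 12 and 1. Over all genes it was 3530 and 4175 in place of 2394 and 4020.

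Col5a2 had the largest rise in this comparison, 2.02 ± 0.31 on the control diet and 1.99 ± 0.31 on SJW. It lay at -0.02, -0.18 and -0.28 in control diet AOM tissue and at -0.60, 0.89 and -0.33 in SJW AOM tissue, where replicate 2 was high but below the tumours. Col4a1 rose by 1.71 ± 0.23 and 1.86 ± 0.23, Col18a1 by 1.62 ± 0.17 and 1.72 ± 0.17, and Col4a2 by 1.1 ± 0.23 and 1.27 ± 0.23. Col1a1 rose by 1.66 ± 0.43 and 1.27 ± 0.43. On SJW its AOM and tumour values overlapped, with AOM replicate 2 at -0.04, and the call ended in 6 of 18 other settings. It was lost without AOM replicate 1 (0.74) or 3 (1.1) and without tumour replicate 1 (1.18) or 2 (1.17), while without AOM replicate 2 the change was 1.96. Col1a2, Col3a1, Col5a1, Col6a1, Col7a1, Col13a1 and Col25a1 passed on the control diet alone, and Col23a1 on SJW alone. Among these, Col3a1 was at 1.19 ± 0.39 and 1.09 ± 0.39, so the threshold separated nearly equal changes, and the difference between the diets was -0.11 (95% interval -1.28 to 1.07). The control diet calls of Col3a1 and Col6a1 (0.80 ± 0.30) ended in 7 of 18 and 12 of 17 other settings, among them without any 1 of the AOM arrays or tumour replicate 2 or 3 (1.02 to 1.25 and 0.62 to 0.90). The calls of Col13a1, Col25a1 and Col23a1 ended in 9, 3 and 7 of 18. Col4a3 fell by 2.53 ± 0.38 and by 3.60 ± 0.38.

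In non-tumour tissue after AOM few chains passed against saline. On the control diet 1 was higher and 0 lower of 41 (0.457% and 0.127% of all genes, 0.583% in all), and on SJW 6 were higher and 0 lower (0.656% and 0.48%, 1.14% in all). The groups did not overlap for 13 members above and 2 below on the control diet (9.45% and 8.34% of all genes) and for 18 and 3 on SJW (13.1% and 15.5%). Col4a2 was the chain that passed in both diets. It went from -1.83, -2.06 and -1.52 to -0.53, -0.39 and -0.80 on the control diet, with no overlap, and rose by 1.23 ± 0.23 (limma adjusted p = 0.0292) and by 1.1 ± 0.23 on SJW (0.0374). Col1a1 was at -2.08, -2.31 and -2.28 after AOM on the control diet and at -2.48, -0.04 and -1.76 on SJW, in each case above all saline samples of that diet. On SJW Col1a1 rose by 1.94 ± 0.43, Col5a1 by 1.51 ± 0.28, Col6a1 by 1.51 ± 0.30, Col6a2 by 1.30 ± 0.27 and Col4a1 by 1.11 ± 0.23. On the control diet the same 5 were at 1.41 ± 0.43, 0.94 ± 0.28, 1.26 ± 0.30, 1.14 ± 0.27 and 1.05 ± 0.23 and did not pass. The median change was 0.19 and 0.33 over the 41, and 0.70 and 0.99 over the fibrillar chains, against -0.01 and -0.02 over all genes. The control diet median of 0.19 was 0.40 without background correction, 0.46 with the scanner's ratio, 0.46 with the deposited table, 0.33 without AOM replicate 2 and 0.29 without saline replicate 2, and the SJW median was 0.21 with Cy3 brightness as a block. The fibrillar medians were 0.41 with the mean of a gene's probes on the control diet and 0.51 without the arrays of bright Cy3 on SJW. Col4a3 was at -1.50 ± 0.38 and -1.06 ± 0.38, not passing, although its groups did not overlap in either diet.

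These AOM counts rest on single arrays. Without SJW AOM replicate 2 or 3, or SJW saline replicate 1 or 3, 0 chains passed on SJW; without SJW saline replicate 2, 9 did. On the control diet 0 passed without saline replicate 1 or 2 or AOM replicate 1 or 2. Without AOM replicate 3, 2 passed (1 higher, 1 lower). With the slide as a block 2 chains (1 higher, 1 lower) passed on the control diet and 8 (all higher) on SJW. SJW AOM replicate 2 had the highest fibrillar mean of the non-tumour samples, 0.23, against -0.68 and -0.42 in the other arrays of its group. For Col5a1 it was at 0.46, beside -0.92 and -0.85. Within the 3 slides the median AOM change was 0.34, 0.096 and 0.42 on the control diet and 0.38, 0.22 and 0.53 on SJW, above 0 on each slide, with 24 to 34 of 41 members positive.

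In both diets the group means of 19 of 41 members (46.3%) ran upwards from saline to AOM tissue to tumours, an order that 9.95% of all genes had. They included Col1a1, Col1a2, Col3a1, the 3 type V chains, Col4a1, Col4a2, Col6a1, Col6a2 and Col18a1. The 19 also held Col6a5 and Col17a1. Both entered the set through the tumours, so their place at the top of this order is not independent of the filter. The reverse order held for Col10a1, Col20a1 and Col4a3 (7.32%; 13.1% of all genes). The middle step was not always beyond the spread: Col18a1 changed by 0.12 ± 0.17 and 0.46 ± 0.17 between saline and AOM tissue, and did not pass, whereas its second probe gave 1.18 ± 0.20 and 1.09 ± 0.20.

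SJW did not change any collagen chain beyond the threshold. Against control diet 0 of 41 passed after saline, after AOM or in tumours, as did 0% of all 26067 genes in limma's test. At an unadjusted p under 0.05 there were 2786, 829 and 1565 genes. The groups did not overlap for 2 members above and 1 below after saline (8.25% and 5.87% of all genes), 1 and 0 after AOM (3.45% and 5.67%) and 1 and 1 in tumours (5.41% and 5.07%). The intervals leave room for moderate differences: in tumours Col1a1 differed by 0.41 (95% interval -0.50 to 1.32), Col3a1 by 0.59 (-0.25 to 1.42), Col4a1 by 0.28 (-0.21 to 0.78) and Col4a3 by -0.49 (-1.30 to 0.31). In AOM tissue Col1a1 differed by 0.80 (-0.11 to 1.71). The median over the 41 members in AOM tissue was -0.23, 0.38 and 0.15 on slides 1, 2 and 3, and slide 2 held the high SJW replicate 2.

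For no chain did the AOM or the tumour change pass a test of its difference between the diets (0 of 41, 0% of all genes in limma's test; 2435 and 1079 genes at an unadjusted p under 0.05). The difference of the AOM change was 0.52 (95% interval -0.76 to 1.81) for Col1a1. The difference of the change from AOM tissue to tumour was -1.07 (-2.21 to 0.07) for Col4a3 and -0.03 (-0.97 to 0.90) for Col5a2.

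Genes that make, modify, bind and degrade collagen were taken as a list of 61, of which 55 were measured. Against saline, 22 rose and 5 fell in control diet tumours (13.2% and 19.6% of all genes) and 28 rose and 6 fell in SJW tumours (13.7% and 22.5%). After AOM 2 rose on the control diet and 5 on SJW, and 0 fell (0.457% and 0.656% of all genes rose). The chaperone gene Serpinh1, which binds procollagen in the endoplasmic reticulum, rose in tumours by 1.66 ± 0.29 and 1.93 ± 0.29, Sparc, a collagen-binding matricellular protein, by 2.40 ± 0.33 and 2.47 ± 0.33, and the prolyl isomerase Fkbp10 by 1.09 ± 0.21 and 1.39 ± 0.21. Mia3, which helps export procollagen, fell by 1.05 ± 0.14 and 1.20 ± 0.14. Of 11 proline and lysine hydroxylation genes, 2 rose on the control diet (Crtap and P3h3) and 9 on SJW, among them Plod2 at 1.04 ± 0.27. Their median changes were 0.47 and 0.66, with 9 and 10 of 11 positive, and 0 of 11 passed between the diets in tumours (median 0.02), so the counts do not show a difference between the diets. The lysyl oxidase Loxl2, which cross-links collagen, rose by 1.17 ± 0.24 and 1.28 ± 0.24, and Loxl1, Loxl3 and Loxl4 did not pass, at -0.21 to 0.81.

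Of 7 degradation genes, 6 rose and 0 fell in control diet tumours, and 5 rose and 1 fell on SJW. Against saline, 13.2% of all genes rose and 19.6% fell on the control diet, and 13.7% and 22.5% on SJW. The collagenase Mmp13 rose by 4.60 ± 0.33 and 2.82 ± 0.33, the gelatinases Mmp9 by 3.23 ± 0.31 and 2.90 ± 0.31 and Mmp2 by 1.87 ± 0.27 and 2.28 ± 0.27, and the membrane protease Mmp14 by 1.62 ± 0.13 and 1.68 ± 0.13. Among proteins that bind fibrils, Thbs2 rose by 2.51 ± 0.34 and 2.77 ± 0.34, Bgn by 1.92 ± 0.25 and 2.37 ± 0.25 and Dcn by 1.88 ± 0.31 and 2.09 ± 0.31, while Prelp fell by 1.90 ± 0.34 and 1.37 ± 0.34. Of the propeptide-removing genes, Pcolce, an enhancer of that cleavage, rose by 0.95 ± 0.20 and 1.23 ± 0.20 and Adamts2 by 0.65 ± 0.16 and 0.98 ± 0.16. Of the 6 measured, 4 rose and 1 fell on the control diet, with changes of -1.20 to 0.95. On SJW 3 rose and 0 fell, at -0.24 to 1.23. Of 8 receptors, 2 rose and 0 fell on the control diet, with changes of -1.52 to 0.92. On SJW 3 rose and 2 fell, at -2.92 to 1.02. With 8 receptors, these counts are not read as different from the shares of all genes given above. Itgb1 and Lair1 rose in both diets.

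The marker lists of smooth muscle, fibroblasts, pericytes, macrophages, endothelium and epithelium differed between groups, not all in the same direction. Of 10 smooth muscle genes 0 passed after AOM (0.583% and 1.14% of all genes did), with median changes of 1.85 and 1.70. The range of their mean level was -1.09 to 0.84 after saline on the control diet, 0.88 to 2.41 after AOM and -1.41 to -1.0 in tumours. On SJW it was -0.90 to 0.24, 0.29 to 2.64 and -1.17 to -0.71, with the highest value in AOM replicate 2. In tumours against AOM tissue 9 and 8 of the 10 fell, with medians of -3.37 and -2.50 (19.2% and 15.4% of all genes fell). In that comparison 7 and 4 of the 11 fibrillar chains rose (12.7% and 9.18% of all genes). The fibroblast list ran from -2.03 to -1.68 after saline, -1.46 to -1.06 after AOM and -1.64 to -1.35 in tumours on the control diet, and on SJW from -2.03 to -1.81, -1.41 to -0.72 and -1.40 to -0.87. In tumours against saline 4 of its 9 members rose and 0 fell in each diet (median 0.43 and 0.52). Of all genes 13.2% and 13.7% rose, and 19.6% and 22.5% fell. The 4 members included Dcn, which is also on the list of collagen-binding genes, and Pdgfra, at 1.46 ± 0.20 and 1.71 ± 0.20. The others were Thy1, at 0.43 ± 0.16 and 0.86 ± 0.16, and Cd34, at 0.50 ± 0.17 and 0.52 ± 0.17. Against AOM tissue 1 rose and 2 fell in each diet (median -0.18 and -0.16), close to the shares of all genes. Those shares were 12.7% and 9.18% higher, and 19.2% and 15.4% lower. Pdgfra rose there by 0.77 ± 0.20 and 1.07 ± 0.20 and Dpt fell by 1.15 ± 0.27 and 0.88 ± 0.27, while Lum fell by 1.81 ± 0.47 on the control diet and Pi16 by 0.98 ± 0.31 on SJW.

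All 6 measured macrophage markers rose in tumours against saline in each diet (medians 1.46 and 2.02), among them C1qa by 1.95 ± 0.30 and 2.67 ± 0.30. Of 8 endothelial markers 4 and 6 rose, Plvap by 1.16 ± 0.27 and 1.12 ± 0.27. Of 6 pericyte markers 1 and 4 rose and 0 fell (median 0.36 and 0.90). Of 8 epithelial markers 7 fell in each diet (median -1.03 in both), Epcam by 0.98 ± 0.18 and 0.86 ± 0.18. In these comparisons with saline 13.2% and 13.7% of all genes rose, and 19.6% and 22.5% fell. Against AOM tissue 2 of 6 macrophage markers rose in each diet, and 1 and 0 endothelial markers. There 1 pericyte marker rose in each diet (median -0.35 and 0.30), and 8 and 7 epithelial markers fell. Among all genes 12.7% and 9.18% rose there, and 19.2% and 15.4% fell. In SJW AOM replicate 3 the pancreatic acinar list stood at 3.43, against -1.33 and -1.28 in the other arrays of that group. The part of these cell types in the collagen values was not tested.

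**Figure D5:**
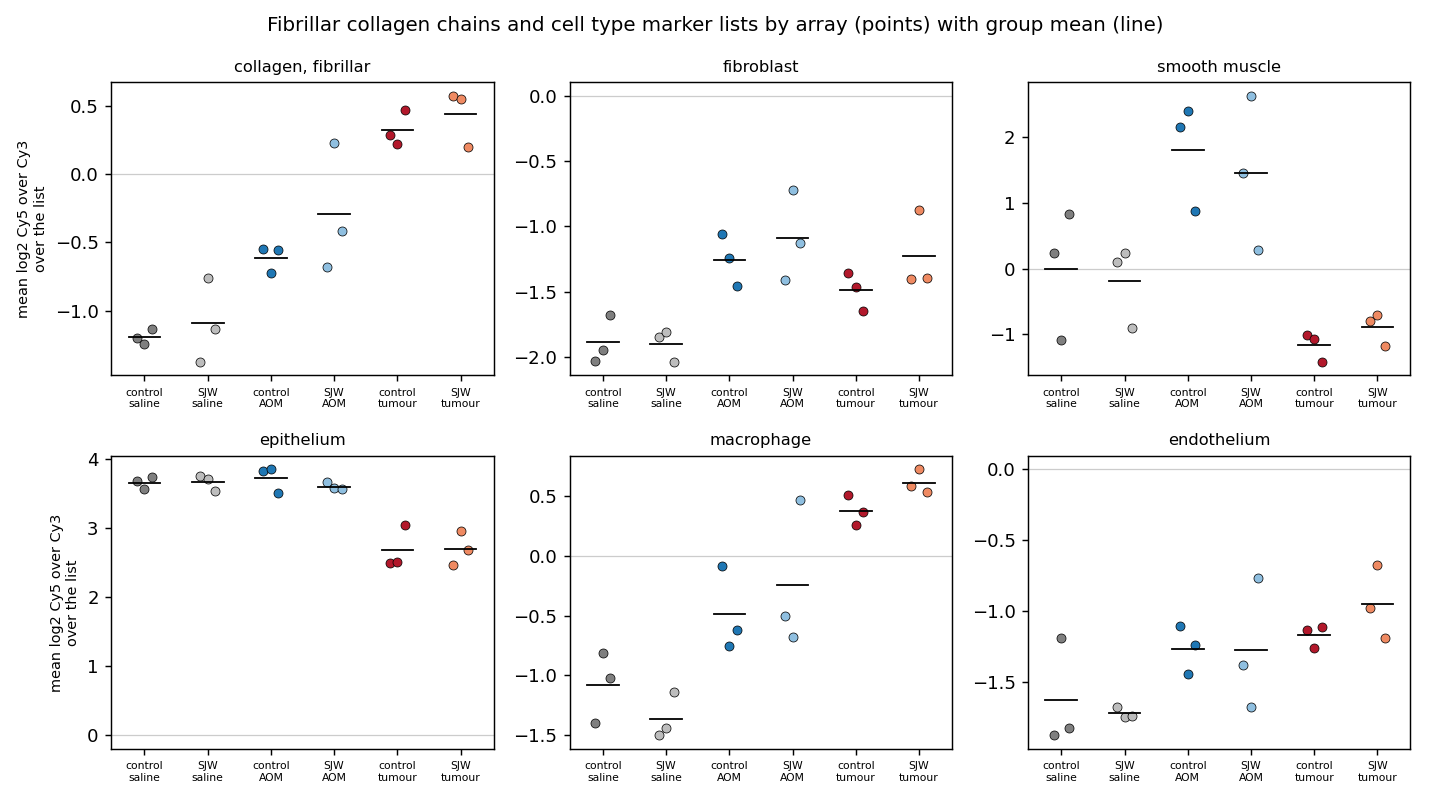
Mean log2 Cy5 over Cy3 (y axis) over the 11 fibrillar chains and over 5 marker lists in each array (points) and group (x axis), with a line at the group mean. By group mean, fibrillar chains are highest in tumours (arrays 0.20 to 0.58) and smooth muscle genes highest in AOM tissue and lowest in tumours; single arrays overlap, such as SJW AOM replicate 2 with a fibrillar mean of 0.23.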

How the data were processed

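RNA of 18 samples was measured on 18 two-colour Agilent arrays, without dye swaps. Per the file headers, spots were read with Feature Extraction 10.10.1.1 (protocol GE2_1010_Sep10, annotation on mm9). The authors deposited an intensity for each spot and its local background, of which the median over pixels was used. The deposited log10 ratio is the software's own red over green ratio, per the file headers. The authors' deposited log2 table, with 35491 entries, matched the log2 ratio of processed signals on each array, red over green and uncentred; column medians, replicates in order, were 0.160, 0.207 and 0.152 for saline tissue (SJW diet: 0.228, 0.148, 0.148), 0.103, 0.206 and 0.053 for AOM tissue (SJW diet: 0.110, 0.129, -0.031) and 0.157, 0.125 and 0.342 for tumours (SJW diet: 0.182, 0.125, 0.156).

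Background was corrected by normexp (offset 50) and ratios by loess within arrays; control spots and outlier spots were left out and spots of a probe averaged. Probes well above background on all 3 arrays of any group were kept (34073 of 41174), and the brightest kept probe stood for a gene. Of all probes, 27050 had 1 symbol, 14124 none and 0 several through RefSeq (GRCm38.p6). Limma 3.58.1 in R 4.3.3 fitted all 18 arrays (12 residual degrees of freedom), with Benjamini-Hochberg adjustment within a comparison over 26067 genes. The fit was tested on simulated data. The number of arrays limits precision. Members and lists were chosen with earlier results of these data known. Named genes were the largest passing changes (up to 12 a direction) and the major chains of each class; of other lists, passing members among the 4 largest of their role, with a few further members given by value. In the 12 non-tumour arrays the replicate number is also the slide, per the file headers; in tumours it is not. Deviations of same-numbered arrays correlated over 0.1 in all 3 pairs of control and SJW saline tissue (0.17, 0.41 and 0.36), and in no other comparison in every pair (13 of all 45 pairs, median 0.023). The main fit held no block, so the printed values of that saline comparison are unpaired. The slide as a block was an alternative, with 0 members passing there. Alternatives changed background correction, scaling, probe choice, filters, blocks and samples.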

Additional observations from a re-analysis of the deposited data

How the results depend on the processing

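The tumour counts held within 1.5 times under every setting tried except that the control diet count against AOM tissue was 11 without the arrays of bright Cy3 channel, an alternative chosen after seeing the data. Leaving out 1 array gave 14 to 18 (control diet) and 9 to 15 (SJW) against AOM tissue, and 20 to 22 and 21 to 22 against saline. In control diet tumours against saline the deposited table gave 19 higher and 0 lower, over the 36 members it holds, in place of 19 and 3. Over the 22958 genes it holds it gave 3158 higher and 3398 lower.

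The AOM count on the control diet, 1, was 2 with the deposited table and 4 with arrays centred on their medians. It was 2 with the mean of the kept probes and 6 without background correction (5 higher, 1 lower). With only the groups compared it was 0, and with the scanner's log ratio 4. With slide as a block it was 2 (1 higher, 1 lower), and without the arrays of bright Cy3 it was 0. Leaving out 1 array gave 0 to 2. With the replicate number as a block it was 3 (2 higher, 1 lower). On SJW the count of 6 was 0 with the deposited table, 1 with centred arrays, 0 with only the groups compared, 0 with Cy5 alone, 0 with Cy3 brightness as a block, 0 with the scanner's ratio and 0 without the arrays of bright Cy3; leaving out 1 array gave 0 to 9, and the replicate block gave 7. Over all 26067 genes the counts also moved. On the control diet, 119 higher and 33 lower became 275 and 5 with centred arrays and 417 and 145 without background correction. They were 234 and 155 with the scanner's ratio and 107 and 31 with the mean of the kept probes. On SJW, 171 and 125 became 113 and 26 with centred arrays and 50 and 38 with the scanner's ratio. With Cy5 alone they were 22 and 19. The deposited table gave 216 and 126, and 40 and 26 on SJW, of 22958 genes. The cause was not tested. The replicate block changed no tumour count by over 1.5 times. SJW counts stayed at 0, also with the block in saline tissue, where slides pair the samples. The medians over the members moved more than the counts and are given beside the results.

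Col10a1 in SJW tumours against saline reversed with Cy5 alone, to 0.049. With centred arrays the median of all genes in tumours against saline was 0.14 on the control diet and 0.12 on SJW. The main fit gave -0.04 and -0.07. The scanner's ratio gave medians of -0.12 after AOM in each diet. Signal was 2.08 to 5.92 times background on non-tumour arrays and 5.24 to 12.2 times on tumour arrays, which limits dim chains such as Col9a1, Col17a1 and Col19a1.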

Other observations

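Several chains had a second probe with a larger or smaller change. Col18a1 was at 2.97 ± 0.20 and 3.43 ± 0.20 in tumours against saline by its dimmer probe, and at 1.18 ± 0.20 and 1.09 ± 0.20 after AOM, where the brighter probe gave 0.12 ± 0.17 and 0.46 ± 0.17. Col4a1 was at 3.27 ± 0.31 and 3.62 ± 0.31 by its dimmer probe. The 3 probes of Col1a1 gave 3.07 to 3.52 on the control diet and 3.20 to 3.97 on SJW. Which transcripts the probes of a gene share was not tested.

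Single arrays stood apart for a few chains. Col8a1, a short-chain collagen of vessel walls, was at 1.81 in SJW AOM replicate 2, beside 0.17 and 0.14 in the others of that group. Col17a1 was at 1.49 in control diet tumour replicate 1, beside -0.75 and -0.53.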
